A study of Mus musculus with 12 samples.

Results

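Glucose uptake, glycolysis and pyruvate handling were followed through 31 genes in mouse cortical neuronal cultures with and without lasting exposure to interferon-gamma, an inflammatory cytokine. The genes were chosen by symbol: glucose transporters, hexokinases, glycolytic enzymes other than phosphofructokinases, genes of lactate and pyruvate transport, and pyruvate dehydrogenase with its kinases and phosphatases. All 31 had a row among the 43629 gene rows, and all 31 passed the filter on low counts, which left 15241 genes. The study's title concerns neuronal metabolism under interferon and the immunoproteasome, and these genes are read here for that question. There were 6 libraries labelled Control and 6 labelled IFNG, from poly(A)-enriched RNA of cortex-derived cultures of Mus musculus. In the IFNG group a lentivirus overexpressing Ifng was given on day 7 in vitro, and RNA was taken after 10 more days. Because all libraries share 1 protocol text, it is unstated whether Control cultures had a vector, and the promoter driving Ifng, the mouse strain and the age are unstated too. Whether replicates were grown from different animals is likewise unstated, so p-values measure the spread between these libraries, which may be technical.

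Cells take up glucose through carriers of the GLUT family, and glycolysis turns it into pyruvate in the cytosol. Pyruvate is either reduced to lactate, which crosses membranes through monocarboxylate transporters, or enters the mitochondrion and is turned into acetyl-CoA by the pyruvate dehydrogenase complex, which kinases switch off and phosphatases switch on. In brain, neurons and astrocytes share this chemistry unequally: GLUT3, neuron-specific enolase and the transporter MCT2 are known from neurons, and aldolase C from astrocytes.

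Libraries held 13875435 to 34239380 counts. Ifng, the check of the labels, ranged from 4.98 to 17.9 CPM (counts scaled by library size) in IFNG libraries and from 0.0 to 0.170 CPM in Control libraries. All 16 listed neuronal markers were measured, and their summed level was 6204 to 6807 CPM in Control and 4645 to 5948 CPM in IFNG libraries. Of these 16 genes 6 were called lower (37.5%, against 9.79% of all genes tested). Of 16 tested astrocyte markers 15 were called higher (93.8%, against 14.3% of all genes tested). The summed level of all 18 listed went from 3057 to 3393 CPM in Control to 5306 to 8623 CPM in IFNG libraries. Gjb6 was at 0 in all IFNG libraries. Summed markers of microglia stayed at or below 22.9 CPM and those of endothelial cells at or below 6.61 CPM in any library, with Tmem119 at 0 in Control and Cldn5 at 0 in both groups. Of 3 tested microglial markers P2ry12 was called higher (log2 fold change 3.60, adjusted p = 0.00144). Of 2 tested endothelial markers Ly6c1 was called higher (7.29, adjusted p = 4.92e-08). Both were low, at or below 1.76 and 2.92 CPM in every library. Over all Control libraries P2ry12 had 8 counts and Ly6c1 had 1. Both therefore passed the filter on low counts only through the IFNG libraries, where they were higher, and their calls carry little weight. Of the 12 listed microglial markers 9 were too low to be tested, and of the 7 listed endothelial markers 5. Summed fibroblast and mural markers were 84.9 to 107 CPM in Control and 113 to 153 CPM in IFNG libraries. Of 6 tested genes on this list 2 were called higher (33.3%, against 14.3% of all genes tested). Oligodendrocyte lineage markers (299 to 402 against 317 to 361 CPM) and genes of dividing cells (115 to 192 against 112 to 141 CPM) overlapped between the groups in sum. Within these lists Cnp was called higher (log2 fold change 2.13, adjusted p = 2.14e-09), and Pdgfra, Olig2, Mki67 and Pcna lower (-0.65, -0.35, -0.61 and -0.34). IFNG 5 stood apart from the other IFNG libraries over all genes, at a chi-square per gene of 51.0 to 84.7 against each, where other IFNG pairs had 14.6 to 46.5. In such mixed cultures more cells of a type and more RNA per cell cannot be told apart, and the part of these marker shifts in the results below was not tested.

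Of the 31 genes 8 rose and 2 fell (edgeR's quasi-likelihood test, Benjamini-Hochberg adjusted p under 0.05 over all genes tested). Hk1, Gpi1, Aldoa, Aldoc, Gapdh, Pgk1, Eno1 and Ldhb rose, and Pdk1 and Pdp1 fell. Among all genes tested 14.3% were called higher and 9.79% lower, 24.1% in either direction, against 25.8% higher and 6.45% lower of the 31. The median log2 fold change was -0.03 over the 31 and -0.02 over all genes. Apart from Aldoc, the risen genes rose by 1.2-fold to 1.48-fold. All IFNG libraries lay above all Control libraries for 4 of the 31 genes, Aldoc, Pgk1, Eno1 and Ldhb, and below them for 1, Pdk1; over all genes tested 8.75% and 4.09% separated in this way. The 7 risen enzymes of glycolysis sit at 7 of its 12 measured genes, while no gene of glucose entry, of the mitochondrial pyruvate carrier or of the pyruvate dehydrogenase complex passed.

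**Figure D1:**
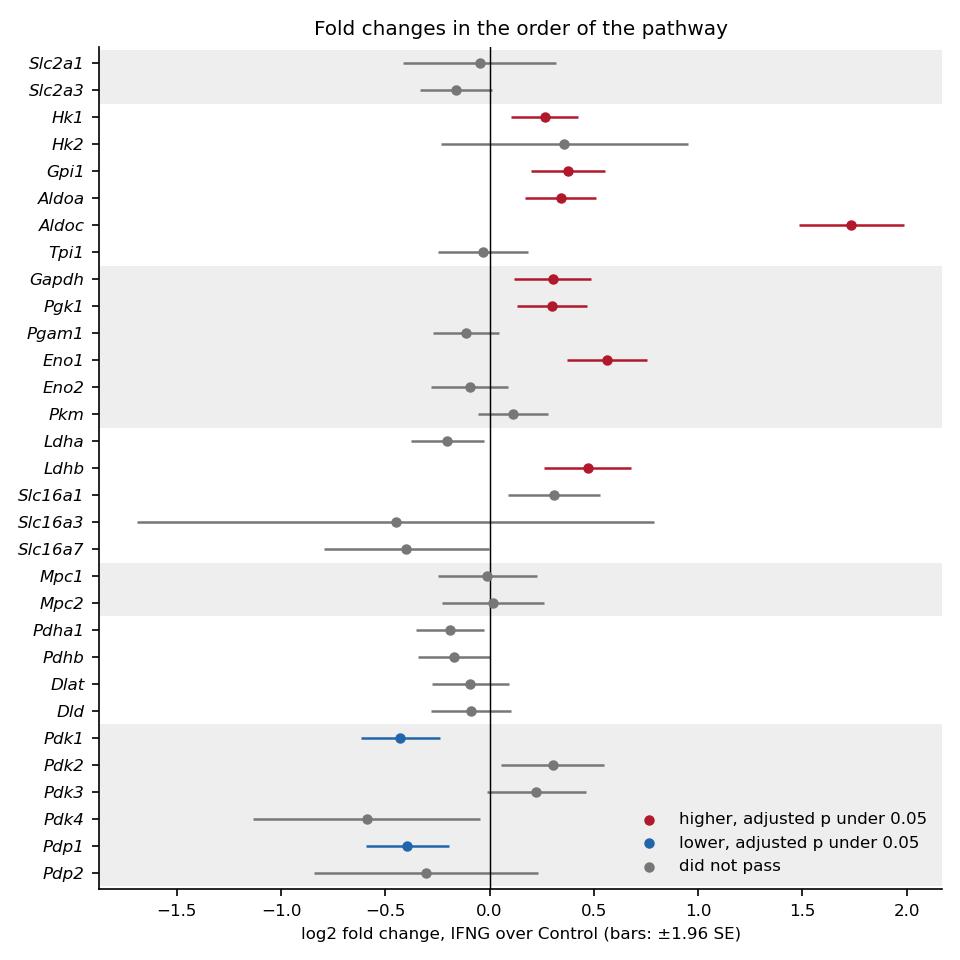
Log2 fold changes of the 31 genes, IFNG over Control, in the order of the pathway; points are estimates, bars are 95% intervals, and shaded bands separate role groups. Aldoc stands furthest out at 1.73, and the other risen genes lie between 0.26 and 0.56.

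At glucose entry neither carrier gene passed. Slc2a3, which encodes the neuronal carrier GLUT3, ranged from 233 to 317 CPM in Control (median 278) and from 222 to 276 CPM in IFNG libraries (median 249). Its log2 fold change was -0.16 ± 0.088 (SE; adjusted p = 0.203), with a 95% interval of -0.33 to 0.01. Slc2a1, for GLUT1 of glia and the blood-brain barrier, ranged from 30.97 to 48.5 CPM (median 39.6) and from 19.0 to 51.2 CPM (median 40.5). The lowest value belonged to IFNG 3 and the highest to IFNG 2, so the IFNG libraries spread wider than the Control libraries around nearly the same median. Per kilobase of annotated exon, the Slc2a3 level was 3.52 ± 0.76 times that of Slc2a1 in Control and 3.60 ± 1.7 times in IFNG libraries (SD, n = 6 each).

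The upper steps of glycolysis held the largest change of the 31 genes: 4 of 6 genes rose (66.7%, against 14.3% of all genes tested). The group had a median of 0.35 on the log2 scale, and its summed level was 1618 to 1896 CPM in Control and 2196 to 2829 CPM in IFNG libraries. Aldoc is part of that sum: its mean went from 169 to 563 CPM, that of the sum from 1679 to 2414 CPM. Hk1, Gpi1 and Aldoa of the upper steps rose as well, as given below. Over the whole set of 31 genes but Aldoc, not the upper steps alone, the summed ranges overlapped slightly. They were 5441 to 6011 CPM in Control (mean 5681) and 5978 to 7431 CPM in IFNG libraries (mean 6449). Aldoc (ENSMUSG00000017390, GRCm38 chromosome 11, 78322968 to 78327781, plus strand) encodes the brain aldolase that splits fructose 1,6-bisphosphate. Its level ranged from 140 to 187 CPM in Control (median 176) and from 417 to 730 CPM in IFNG libraries (median 589). Every IFNG library was above every Control library, with IFNG 3 the lowest and IFNG 5 the highest of them. The log2 fold change was 1.73 ± 0.13 (SE; adjusted p = 2.09e-09), or 3.33-fold. In the same libraries the 16 tested astrocyte markers had a median log2 fold change of 0.88, from 0.34 for Slc4a4 to 2.28 for Id3. Id3 was near the floor, at or below 0.678 CPM in Control, and its standard error was 0.61. Its IFNG values ran from 0.430 to 6.77 CPM (median 1.65), the highest in IFNG 3. Clu, far more abundant, stood at 2.16 ± 0.18.

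The RefSeq window from 250 bases before to 50 after the first start of Aldoc on GRCm38.p6, chr11:78322823-78323122 on the plus strand, is shown because Aldoc moved furthest. It holds 1 match to ACGTG, a form of the core of the hypoxia response element, on the minus strand 27 bases after the start. Capitals mark the match.
Aldoc window: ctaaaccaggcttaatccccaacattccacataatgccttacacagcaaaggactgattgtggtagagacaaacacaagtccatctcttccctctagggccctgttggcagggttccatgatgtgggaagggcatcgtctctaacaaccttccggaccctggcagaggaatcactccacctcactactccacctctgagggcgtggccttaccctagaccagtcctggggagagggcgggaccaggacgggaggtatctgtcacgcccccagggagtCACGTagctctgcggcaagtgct
Matches were sought on both strands and describe letters only. Of the 31 genes 28 have such a window. ACGTG was found for 16 of 28, or 57.1%, against 28.8% of the 11188 tested genes with a window. It was found for 5 of the 8 genes that rose, or 62.5%, near the share of all 28. The risen genes Gpi1, Eno1 and Ldhb had no match to ACGTG. The other form of the core, GCGTG, was not sought, so these shares do not cover the whole element. The letters GCGTG do occur in a window of Eno1 and in that of Ldhb. Genes with more starts have more windows to hold a match.

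The other members of the upper steps moved less. Hk1, the hexokinase of brain that phosphorylates glucose, ranged from 362 to 457 CPM in Control (median 405) and from 445 to 551 CPM in IFNG libraries (median 483). It rose by 0.26 ± 0.082 on the log2 scale (SE; adjusted p = 0.0234), and 5 of 6 IFNG libraries were above the highest Control library. That call is close to the threshold: without Control 2 the adjusted p was 0.0544, on library totals without a composition factor it was 0.0570, and with no filter on low counts 0.0512. Gpi1, the isomerase after hexokinase, ranged from 374 to 453 CPM (median 379) and from 451 to 623 CPM (median 492). It rose by 0.38 ± 0.091 (adjusted p = 0.00459); the highest Control library, Control 6, lay just above the lowest IFNG library. Aldoa, the widely expressed aldolase, ranged from 496 to 622 CPM (median 546) and from 603 to 756 CPM (median 691). Its rise was 0.34 ± 0.086 (adjusted p = 0.00626), again with 5 of 6 IFNG libraries above all Control libraries. Tpi1, which interconverts the triose phosphates, ranged from 152 to 173 CPM (median 162) in Control and from 124 to 211 CPM (median 159) in IFNG libraries. The IFNG libraries lay on both sides of the Control range (log2 fold change -0.03 ± 0.11, adjusted p = 0.882). Hk2, an inducible hexokinase, was low at 1.30 to 4.17 CPM and 2.43 to 5.57 CPM, with IFNG 1 far above the other IFNG libraries, and its interval of -0.23 to 0.95 is wide.

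In the lower steps 3 of 6 genes rose. Their group had a median of 0.21 on the log2 scale, and its summed level was 2344 to 2627 CPM in Control and 2741 to 3574 CPM in IFNG libraries. Eno1 (ENSMUSG00000063524, chromosome 4, 150236721 to 150248879, plus strand), the broadly expressed enolase, ranged from 418 to 526 CPM in Control (median 445) and from 598 to 867 CPM in IFNG libraries (median 642). The groups did not overlap, and IFNG 5 stood above the other 5 IFNG libraries, which reached 693 CPM. The log2 fold change was 0.56 ± 0.098 (SE; adjusted p = 0.000209). Without IFNG 5 the log2 fold change was 0.49, and without Control 4 it was 0.62. Gapdh, the dehydrogenase often used as a reference gene, ranged from 789 to 1021 CPM (median 850) and from 970 to 1334 CPM (median 1037). It rose by 0.30 ± 0.094 (adjusted p = 0.0236), with 4 of 6 IFNG libraries above all Control libraries. The Gapdh call was lost without Control 1, Control 2 or Control 3 (adjusted p = 0.0517, 0.0549 and 0.0618).

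Pgk1 (ENSMUSG00000062070, chromosome X, 106187100 to 106203699, plus strand), which makes the first ATP of the pathway, ranged from 176 to 213 CPM in Control (median 194) and from 218 to 284 CPM in IFNG libraries (median 231). The groups stood apart by a small gap between Control 6 and IFNG 4. Its rise was 0.30 ± 0.086 (SE; adjusted p = 0.0144). The RefSeq window of Pgk1, chrX:106186850-106187149 on the plus strand, is shown as a risen gene with 2 ACGTG matches, in capitals, 150 and 131 bases before the start.
Pgk1 window: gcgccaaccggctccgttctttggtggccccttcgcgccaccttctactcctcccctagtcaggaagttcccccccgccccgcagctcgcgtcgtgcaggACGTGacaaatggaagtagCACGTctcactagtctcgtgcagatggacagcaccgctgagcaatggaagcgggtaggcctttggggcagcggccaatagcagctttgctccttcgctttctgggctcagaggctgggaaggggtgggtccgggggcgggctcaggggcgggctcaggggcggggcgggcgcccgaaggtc
Pgam1, Eno2 and Pkm did not pass. Pkm, for the pyruvate kinase that ends glycolysis, was the most abundant of these by CPM, at 548 to 708 CPM (median 595) and 592 to 752 CPM (median 662). Its log2 fold change was 0.11 ± 0.087 (adjusted p = 0.383), and 1 of 6 IFNG libraries was above all Control libraries. Eno2, neuron-specific enolase, ranged from 169 to 221 CPM (median 197) and from 155 to 212 CPM (median 183), at -0.10 ± 0.095 (adjusted p = 0.513). Pgam1, the mutase before enolase, stood at -0.11 ± 0.081 (adjusted p = 0.348).

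**Figure D2:**
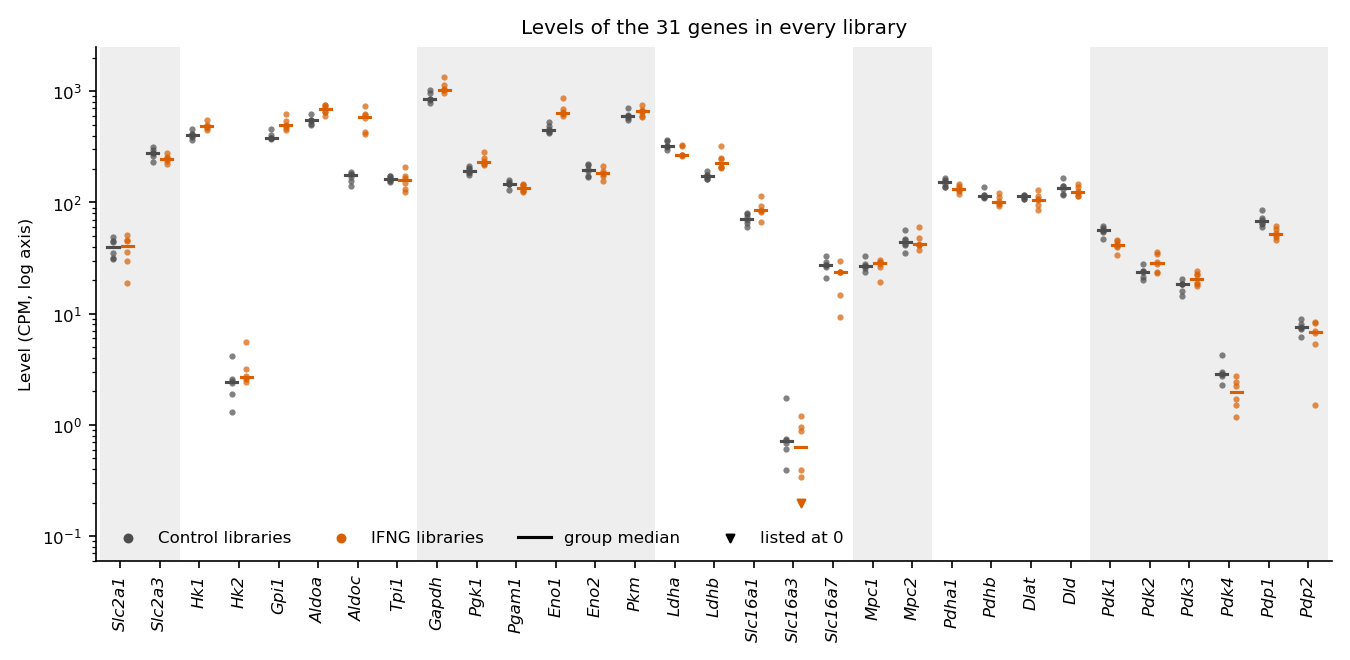
Levels of the 31 genes in CPM on a log axis; each point is a library, short lines are group medians, shaded bands separate role groups, and the triangle marks a library listed at 0 (Slc16a3 in IFNG 2). Aldoc is the gene whose 6 IFNG points, 417 to 730 CPM, stand furthest from the 6 Control points, 140 to 187 CPM.

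Of 5 genes of lactate 1 rose, and the median log2 fold change was -0.20. Ldhb (ENSMUSG00000030246, chromosome 6, 142490249 to 142507957, minus strand), the subunit of the lactate dehydrogenase form that is often linked to lactate use, ranged from 162 to 193 CPM in Control (median 172) and from 205 to 319 CPM in IFNG libraries (median 227). All IFNG libraries were above all Control libraries, IFNG 5 most of all. It rose by 0.47 ± 0.11 on the log2 scale (SE; adjusted p = 0.00249), and by 0.38 without IFNG 5. Ldha, for the subunit linked to lactate production, ranged from 299 to 365 CPM (median 321) and from 262 to 329 CPM (median 268). Its log2 fold change was -0.20 ± 0.089 (adjusted p = 0.109); 4 of 6 IFNG libraries were below the lowest Control library. The first RefSeq window of Ldha, chr7:46845554-46845853 on the plus strand, is shown beside that of Pgk1 as the window with the most matches of the 28 genes. It holds 5 ACGTG matches counted on both strands, 4 of them as 2 copies of the palindrome CACGTG, an E-box, which contains ACGTG on both strands.
Ldha window: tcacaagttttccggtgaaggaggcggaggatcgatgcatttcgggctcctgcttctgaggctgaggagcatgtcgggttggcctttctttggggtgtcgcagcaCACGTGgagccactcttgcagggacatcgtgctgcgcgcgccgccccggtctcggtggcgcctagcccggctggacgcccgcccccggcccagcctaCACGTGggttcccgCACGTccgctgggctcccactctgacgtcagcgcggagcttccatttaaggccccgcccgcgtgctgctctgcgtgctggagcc
CACGTG was found for 4 of the 28 genes with a window, or 14.3%, against 11.5% of tested genes, and for none of the 8 that rose.

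Among the monocarboxylate transporters none passed. Slc16a1, for MCT1, ranged from 59.8 to 80.5 CPM in Control (median 71.5) and from 67.4 to 115 CPM in IFNG libraries (median 85.4). Its log2 fold change of 0.31 ± 0.11 lay just outside the threshold (SE; adjusted p = 0.0542), with 5 of 6 IFNG libraries above all Control libraries. It passed in 8 of the 22 alternatives tried, among them DESeq2 (adjusted p = 0.0432). Slc16a7, for the neuronal MCT2, ranged from 21.0 to 33.0 CPM (median 27.4) and from 9.32 to 29.96 CPM (median 23.7). IFNG 5 and IFNG 2 were the lowest, and the log2 fold change was -0.40 ± 0.20 (adjusted p = 0.171). Slc16a3, for the lactate exporter MCT4, was near the detection limit, at or below 1.74 CPM in every library.

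Pyruvate entry and oxidation showed no call. The carrier subunit genes Mpc1 and Mpc2 stood at -0.01 ± 0.12 and 0.02 ± 0.12 (adjusted p = 0.961 and 0.944), with 95% intervals of -0.25 to 0.23 and -0.23 to 0.26. Mpc1 ranged from 23.5 to 33.2 CPM in Control (median 26.9) and from 19.3 to 30.7 CPM in IFNG libraries (median 28.6). Its annotated exons overlap a transcript on the other strand over 23.1% of their length, and a processed pseudogene, Mpc1-ps, took 1984 counts against 6367 for Mpc1, so the division of its reads is uncertain. All 4 genes of the pyruvate dehydrogenase complex had negative estimates, from -0.19 to -0.09, but those of Dlat and Dld turned positive when libraries were scaled by totals without the genes called higher. That scaling was built from the calls of these data, and it raised the median over all genes from -0.02 to 0.10. Pdha1, the catalytic alpha subunit, ranged from 138 to 167 CPM (median 152) and from 119 to 146 CPM (median 132). It came nearest to a call at -0.19 ± 0.083 (adjusted p = 0.106), with 4 of 6 IFNG libraries below all Control libraries. Pdhb, its partner subunit, ranged from 110 to 137 CPM (median 114) and from 92.5 to 121 CPM (median 101), with Control 4 above the other Control libraries. Dlat, the acetyltransferase core, and Dld, the dehydrogenase shared with other complexes, stood at -0.09 ± 0.095 and -0.09 ± 0.098 (adjusted p = 0.526 and 0.566). Dlat had 4 IFNG libraries below and 1 above the Control range.

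Of 6 regulators of the complex 2 fell (33.3%, against 9.79% of all genes tested), and the median log2 fold change was -0.35. Pdk1 (ENSMUSG00000006494, chromosome 2, 71873224 to 71903858, plus strand), a kinase that inactivates the complex, ranged from 47.1 to 60.9 CPM in Control (median 56.2) and from 34.02 to 46.4 CPM in IFNG libraries (median 41.3). Every IFNG library was below every Control library. The log2 fold change was -0.43 ± 0.097 (SE; adjusted p = 0.00266). Pdp1 (ENSMUSG00000049225, chromosome 4, 11958184 to 11966452, minus strand), a phosphatase that reactivates the complex, ranged from 60.3 to 85.8 CPM (median 67.9) and from 45.6 to 61.1 CPM (median 52.4). It fell by 0.40 on the log2 scale (SE 0.10, adjusted p = 0.00716), and 5 of 6 IFNG libraries were below all Control libraries. A kinase gene and a phosphatase gene of opposite roles were thus both lower.

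The remaining regulators did not pass. Pdk2 and Pdk3, 2 further kinases, stood at 0.30 ± 0.13 and 0.22 ± 0.12 (SE; adjusted p = 0.0888 and 0.199). For each of these genes 3 of 6 IFNG libraries were above all Control libraries, and none was below the lowest. Pdk2 passed without Control 6, IFNG 1 or IFNG 3 (adjusted p = 0.0479, 0.0477 and 0.0472). Pdk4, the kinase induced by fasting in many tissues, was low, at 2.28 to 4.24 CPM and 1.18 to 2.78 CPM, with 4 of 6 IFNG libraries below all Control libraries (log2 fold change -0.59 ± 0.28, adjusted p = 0.138). Pdp2, the second phosphatase, ranged from 6.14 to 8.97 CPM (median 7.57) and from 1.504 to 8.45 CPM (median 6.82), and IFNG 5 held the lowest value. Per kilobase of exon, Pdk2, Pdk1 and Pdk3 were close to each other in Control libraries (7.45 ± 0.85, 7.13 ± 0.61 and 6.92 ± 0.85 CPM per kilobase, SD, n = 6), and their ranges overlapped. In IFNG libraries they were 9.20, 5.30 and 8.09 CPM per kilobase, and the highest Pdk1 value, 5.96, was below the lowest of Pdk2 and Pdk3, 7.35 and 6.98.

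**Figure D3:**
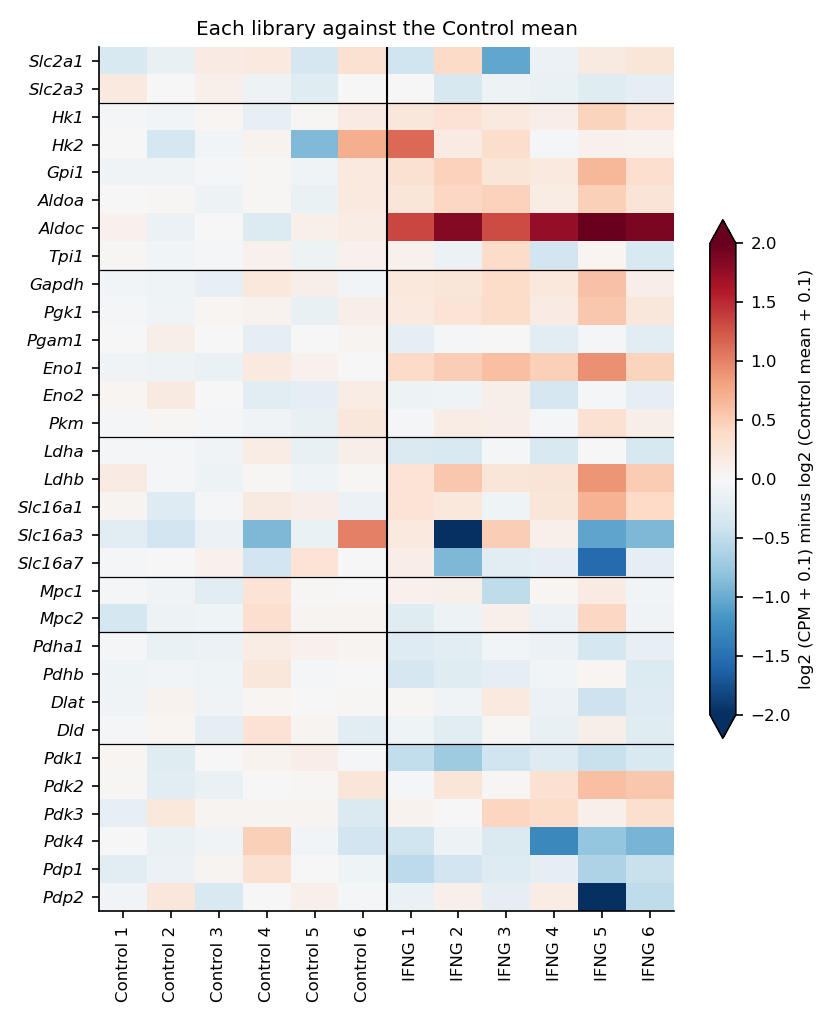
Each library against the Control mean: color is log2 of CPM plus 0.1 minus log2 of the Control mean plus 0.1, rows are the 31 genes in pathway order with lines between role groups, columns are libraries. Aldoc is red in all 6 IFNG libraries and Pdk1 blue in all 6, and among the 8 risen genes the deepest red is in IFNG 5.

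For all 8 risen genes the highest IFNG library was IFNG 5. Without it, 8 of the 31 rose and 2 fell. Without Control 4 and IFNG 5 together, a choice made after seeing the data, 9 rose and 2 fell, Slc16a1 being the added gene.

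Ratios within a library do not depend on how libraries are scaled. For 6 pairs of genes that serve the same step, log2 ratios of counts were compared by an exact two-sided permutation test over all arrangements of the libraries, with p-values adjusted over the 6 ratios. The Aldoc to Aldoa ratio ranged from -1.98 to -1.45 in Control (median -1.66) and from -0.85 to -0.05 in IFNG libraries (median -0.17). The groups did not overlap, and the difference of means was 1.37 (exact p = 0.00216, the smallest the test can give; adjusted p = 0.00433; higher in 6 of 6 libraries). Per kilobase of exon, the Aldoc level was 0.278 ± 0.037 times that of Aldoa in Control and 0.731 ± 0.16 times in IFNG libraries (SD, n = 6 each).

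The enolase and lactate dehydrogenase ratios separated as well. The Eno1 to Eno2 ratio ranged from 0.95 to 1.64 (median 1.11) and from 1.71 to 2.17 (median 1.83), a difference of 0.65 (exact p = 0.00216, adjusted p = 0.00433). It went from 2.09 ± 0.41 to 3.25 ± 0.43 per kilobase (SD, n = 6 each), so the broadly expressed enolase gained on the neuronal one. The Ldha to Ldhb ratio ranged from 0.73 to 1.06 (median 0.95) in Control and from 0.05 to 0.67 (median 0.23) in IFNG libraries, a difference of -0.66 (exact p = 0.00216, adjusted p = 0.00433). It fell in all 6 IFNG libraries below the Control range, from 0.906 ± 0.072 to 0.579 ± 0.10 per kilobase (SD, n = 6 each).

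The other 3 ratios were less clear. Slc16a1 to Slc16a7 ranged from 1.12 to 1.94 (median 1.26) and from 1.52 to 3.62 (median 1.90), with groups that overlapped and a difference of 0.77 (exact p = 0.0238, adjusted p = 0.0357). That call was lost without any of Control 1, Control 2, Control 3, Control 5, Control 6 or IFNG 5 (adjusted p = 0.0649 to 0.0942), and without IFNG 5 the difference was 0.48. Slc2a1 to Slc2a3 and Hk2 to Hk1 differed by 0.05 and 0.12 between group means (exact p = 0.848 and 0.684, adjusted p = 0.848 and 0.821). Both changed sign when single libraries were left out. In every IFNG library the summed astrocyte markers were higher and the summed neuronal markers lower than in every Control library, as given above, and their part in the ratios was not tested.

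**Figure D4:**
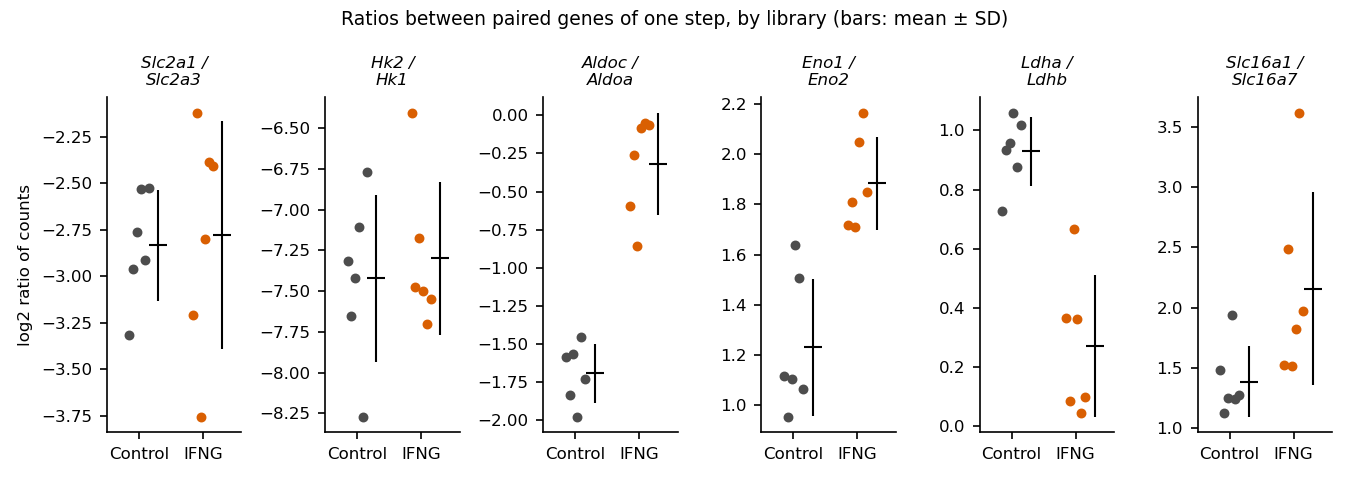
Log2 ratios of counts for the 6 gene pairs; points are libraries, and bars to the right of them are the mean and SD of a group (n = 6 each); each panel has its own axis. The groups separate for Aldoc to Aldoa, Eno1 to Eno2 and Ldha to Ldhb, by 1.37, 0.65 and -0.66.

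Per kilobase of exon, Gapdh and Aldoa were the highest in Control, at 214 ± 21 and 187 ± 15 CPM per kilobase, and their ranges overlapped (SD, n = 6). Slc16a3 was the lowest at 0.154 ± 0.089 CPM per kilobase. All 8 risen genes were among the 12 highest of the 31 in Control, and their standard errors were 0.082 to 0.13. Aldoc moved from place 11 to place 3 in this order. For 5 of the 31 genes (Hk2, Slc16a3, Slc16a7, Pdk4 and Pdp2) the standard error was over 0.2. Among them Slc16a7 varied from 9.32 to 29.96 CPM between IFNG libraries, and Pdp2 stood at 1.504 CPM in IFNG 5.

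Genes around the pathway were taken from lists by name. Of 48 other glucose and pyruvate genes 37 were tested: 7 (18.9%) were called higher and 0 lower, against 14.3% and 9.79% over all genes tested, and the list median was 0.13 on the log2 scale, against -0.02. They were Pygb, the brain glycogen phosphorylase, at 1.49 ± 0.15 (SE; adjusted p = 2.46e-07), Pcx, the pyruvate carboxylase known from astrocytes, at 1.25 ± 0.18 (2.17e-05), Gys1, glycogen synthase, at 0.71 ± 0.13 (0.000288), and Pfkfb3, which makes an activator of phosphofructokinase, at 0.68 ± 0.087 (5.60e-06). The other three were Pfkm at 0.40 ± 0.10 (0.00643), Ldhd at 1.36 ± 0.43 (0.0244) and Slc2a9 at 1.53 ± 0.52 (0.0367), the last 2 from under 1 CPM in Control. Pcx went from 38.1 ± 4.0 to 90.4 ± 31 CPM and Pygb from 174 ± 20 to 490 ± 130 CPM (SD, n = 6 each). Bsg, the chaperone of monocarboxylate transporters, was the most abundant without a call, at 0.18 ± 0.092 (adjusted p = 0.179).

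Of 19 regulators of glucose metabolism 4 rose (21.1%, against 14.3% over all genes) and 2 fell (10.5%, against 9.79%), with a median of 0.05. Txnip, which restrains glucose uptake, rose from 11.4 ± 3.2 to 32.0 ± 12 CPM (SD over 6 libraries each, a log2 fold change of 1.496 ± 0.22, adjusted p = 2.79e-05), and Mlxipl, a glucose-sensing transcription factor, from 1.498 ± 1.2 to 4.82 ± 1.7 CPM (1.69 ± 0.38, adjusted p = 0.00259). Ppargc1a and Foxo1 rose by 0.47 ± 0.10 and 0.42 ± 0.13 (adjusted p = 0.00156 and 0.0228). Epas1, the gene of HIF-2 alpha, fell by 0.83 on the log2 scale (SE 0.14, adjusted p = 0.000159), and Prkaa2, a catalytic subunit of the energy sensor AMPK, by 0.49 (SE 0.15, adjusted p = 0.0208). Hif1a stood at -0.07 ± 0.11 (adjusted p = 0.688).

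Of 13 tested hypoxia response genes outside glycolysis 3 rose (23.1%, against 14.3% over all genes) and 2 fell (15.4%, against 9.79%), with a median of 0.10. Egln3, an oxygen-sensing prolyl hydroxylase, rose from 4.96 ± 0.99 to 21.7 ± 4.7 CPM (SD over 6 libraries each), a log2 fold change of 2.13 ± 0.18 (adjusted p = 1.50e-08), P4ha1, of collagen hydroxylation, by 0.56 ± 0.095 (adjusted p = 0.000165) and Bnip3, of mitophagy, by 0.50 ± 0.13 (adjusted p = 0.00896). Ndrg1 and Bnip3l fell by 0.72 and 0.55 (SE 0.12 and 0.10, adjusted p = 0.000146 and 0.000493), and Vegfa stood at -0.16 ± 0.10 (adjusted p = 0.299). The list moved in both directions, and its relation to the 31 genes was not tested.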

How the data were processed

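The data were counts per gene for 12 poly(A) RNA libraries. The authors deposited raw counts, whole numbers that were not normalized, for 43629 Ensembl identifiers. STAR 2.4, DESeq2, GRCm39 and mm10 are named in the submitters' processing notes without a role. With read counter, strand setting and annotation not given in the sources used here, it is uncertain how reads of overlapping genes on opposite strands, and of retrocopies such as Eno1b or the Gapdh pseudogenes, were divided. A reference table of identifiers and symbols matched 42462 of them, and coordinates and exon lengths came from GENCODE M21 (GRCm38). Identifiers without a symbol held 0.133 to 0.158% of a library's counts.

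IFNG was compared with Control in edgeR 4.0.16 (R 4.3.3): filterByExpr, TMM scaling, quasi-likelihood F-test, two-sided, Benjamini-Hochberg adjustment over 15241 genes, no block. Standard errors were derived from the fold change and its F statistic, and 95% intervals assume a normal distribution. CPM (rates of counts) use TMM-scaled totals, and CPM per kilobase divide by the union of annotated exons, which overstates the length of genes with rare long isoforms. Ratios used counts plus 0.5. No pair of libraries within a group agreed within sampling noise (chi-square of at least 7.35 per gene). Promoter windows are RefSeq's (GRCm38.p6). Some motif results are not reported here.

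The members and lists were chosen with earlier results of these data known. All 31 members are accounted for; from each further list the 4 smallest p-values past the threshold and the most abundant gene that did not pass are named, and the others of those lists, with the marker genes, were chosen after their values were seen. Alternatives were other scalings, filters and tests (DESeq2 1.42.0, limma-voom in limma 3.58.1), a replicate block, a tested fold change of 1.2 and each library left out.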

Additional observations from a re-analysis of the deposited data

Results flagged for a closer look

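Among 74 groups of 6 libraries checked (the level of each gene and each ratio, in Control and in IFNG), 7 had 1 library whose gap to the nearest other, divided by the range of the group, was over 0.625. Chance alone flags about 1 in 20 groups. In IFNG libraries these were Hk2 at 5.57 CPM in IFNG 1 (others 2.43 to 3.197), Eno1 at 867 CPM in IFNG 5 (others 598 to 693) and Mpc1 at 19.3 CPM in IFNG 3 (others 26.5 to 30.7). In Control libraries they were Gpi1 at 453 CPM in Control 6 (others 374 to 402), Slc16a3 at 1.74 CPM in Control 6 (others 0.396 to 0.751), Pdhb at 137 CPM in Control 4 (others 110 to 117) and Pdk4 at 4.24 CPM in Control 4 (others 2.28 to 3.01). Eno1 and Gpi1 passed with each single library left out in turn.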

How the results depend on the processing

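Of the 31 genes 6 to 10 rose and 2 fell when single libraries were left out. In the other settings 7 to 11 rose and 2 fell, except in the test against a fold change of 1.2, where 2 rose (Aldoc and Eno1) and 0 fell; that test also called 458 genes lower over all genes, against 1492. Aldoc and Eno1 passed in all 22 alternatives. Scaling by totals without the genes called higher shifted the all-gene median from -0.02 to 0.10 and that of the 31 to 0.0815, with 750 genes lower over all genes, and higher calls then made up 79.8% of all calls against 59.4%; on plain library totals the share was 51.3%. Under that scaling without risen genes Slc16a1, Pdk2 and Pdk3 also passed, at 0.42, 0.42 and 0.33, and the estimates of Slc2a1, Tpi1, Eno2, Mpc1, Dlat and Dld, none of them called, turned positive. Same-numbered libraries deviated from their group means with correlations of -0.001 to 0.12, so the numbers were not taken to pair them. With the replicate block 9 of the 31 rose and 2 fell, and 2 of 6 Control libraries correlated best with their own number. Paired by number, ratios were tested over 64 sign flips, which give no p below 0.0312, so after adjustment no ratio passed: Aldoc to Aldoa 1.37, Eno1 to Eno2 0.65 and Ldha to Ldhb -0.66 (adjusted p = 0.0625 each), Slc16a1 to Slc16a7 0.77 (0.141). With single libraries left out the ratio differences were 1.32 to 1.48, 0.60 to 0.73, -0.74 to -0.61 and 0.48 to 0.90 in that order, and -0.0773 to 0.25 for Slc2a1 to Slc2a3 and -0.0569 to 0.25 for Hk2 to Hk1.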
